A study of Mus musculus with 5 samples.

Results

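The 66 genes described here encode the voltage-gated sodium and calcium channels with their auxiliary subunits, the HCN channels and the canonical, melastatin and vanilloid TRP channels. They were chosen by name from the non-lincRNA rows of the deposited expression table. Symbols that began with Scn, a number and a or b, with Cacna, Cacnb or Cacng, or with Trpc, Trpm or Trpv and a digit were taken, as was Hcn with a single digit. This gave 66 of 22071 symbols, and the values of 107 transcripts were summed to them. Trpc4ap, which encodes a protein that associates with TRPC4 and is no channel itself, was taken by the rule too. Polyadenylated RNA was sequenced from microdissected tissue of 4 brain regions of adult male wild-type C57BL/6 mice. The subventricular zone (SVZ, 2 samples) and the dentate gyrus (DG, 1 sample) are regions where neurons are born in the adult. The olfactory bulb (OB, 1 sample) was sampled as well, and the striatum (STR, 1 sample) served as the non-neurogenic control. The labels call the SVZ samples biological replicates and do not say how many animals went into a sample. The labels name no treatment and no altered allele in any group.

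Voltage-gated sodium (Nav) channels open the rising phase of the action potential, and their pore-forming alpha subunits are joined by single-pass beta subunits that set gating and surface density. Voltage-gated calcium (Cav) channels turn depolarization into calcium entry. Their pores are of L-type, of P/Q-, N- and R-type and of low-threshold T-type. The L-type and the P/Q-, N- and R-type pores are trafficked and tuned by alpha2delta and beta subunits. Several genes named as calcium channel gamma subunits encode transmembrane AMPA receptor regulatory proteins (TARPs). HCN channels carry the hyperpolarization-activated current that paces many neurons, and TRP channels are cation channels opened by receptors, lipids, temperature or metabolites.

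Levels are given in FPKM (for the SVZ pair, sample 1 and then sample 2), that is, fragments divided by transcript length in kilobases and by the library's mapped fragments, which allows levels of different genes to be compared. Differences are on log2(FPKM + 1), which understates folds of low genes. Their standard errors (SE) come from a limma fit of all 5 libraries, in which the SVZ pair gave the 1 residual degree of freedom, so the spread of OB, DG and STR is assumed and was not measured. The tissues carried their markers. The summed level of 6 striatal projection neuron markers was 1783 to 2893 FPKM in the SVZ and STR libraries and 50.2 to 60.4 in OB and DG. The sum of 3 dentate granule neuron markers was 382 in DG and 2.66 to 6.12 elsewhere, and that of 5 OB neuron markers was 1146 in OB and 6.30 to 18.1 elsewhere. In bulk tissue, fewer cells of a type and less RNA per cell cannot be told apart. SVZ sample 2 and STR shared features that the labels do not explain. They held 153 and 161 RefSeq transcripts shorter than 200 bases at 1 FPKM or more, where the other 3 libraries held 14 to 24, and Gapdh was at 32.4 and 39.5 FPKM in them, where the others had 414 to 563. Differences from STR are therefore given also within library sets, as the difference within SVZ sample 1, OB and DG plus the difference within SVZ sample 2 and STR.

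Of the 66 genes, 54 reached 1 FPKM in at least 1 library, and the number at that level was 46 and 47 in the SVZ samples, 50 in OB, 43 in DG and 48 in STR. The 12 that stayed below it everywhere were Scn4a, Scn10a and Scn11a, which are sodium channels of muscle and sensory neurons, Cacna1f and Cacna2d4, calcium channel genes of the retina, and Trpm1, Trpm5, Trpm6, Trpm8, Trpv1, Trpv3 and Trpv5. Their highest value in any library was that of Cacna2d4 in DG, at 0.860 FPKM. A value of 0 in a table of FPKM can be a failed estimate, and 1 to 9 of the 66 were listed at 0 in a library. DG had the most, at 9, and it also listed 16725 of all transcripts at 0, where the other libraries listed 9564 to 10807. The 5th percentile of the values above 0 was 0.122 FPKM in DG and 0.0167 to 0.0292 elsewhere, so low values of DG lie nearer its floor. The most abundant gene was Scn4b, at 575 FPKM in STR. The heat map of 50 of these genes shows the OB and DG columns departing from the SVZ and STR columns. They do so together in some rows, such as Scn4b and Cacna2d3, and separately in others.

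**Figure D1:**
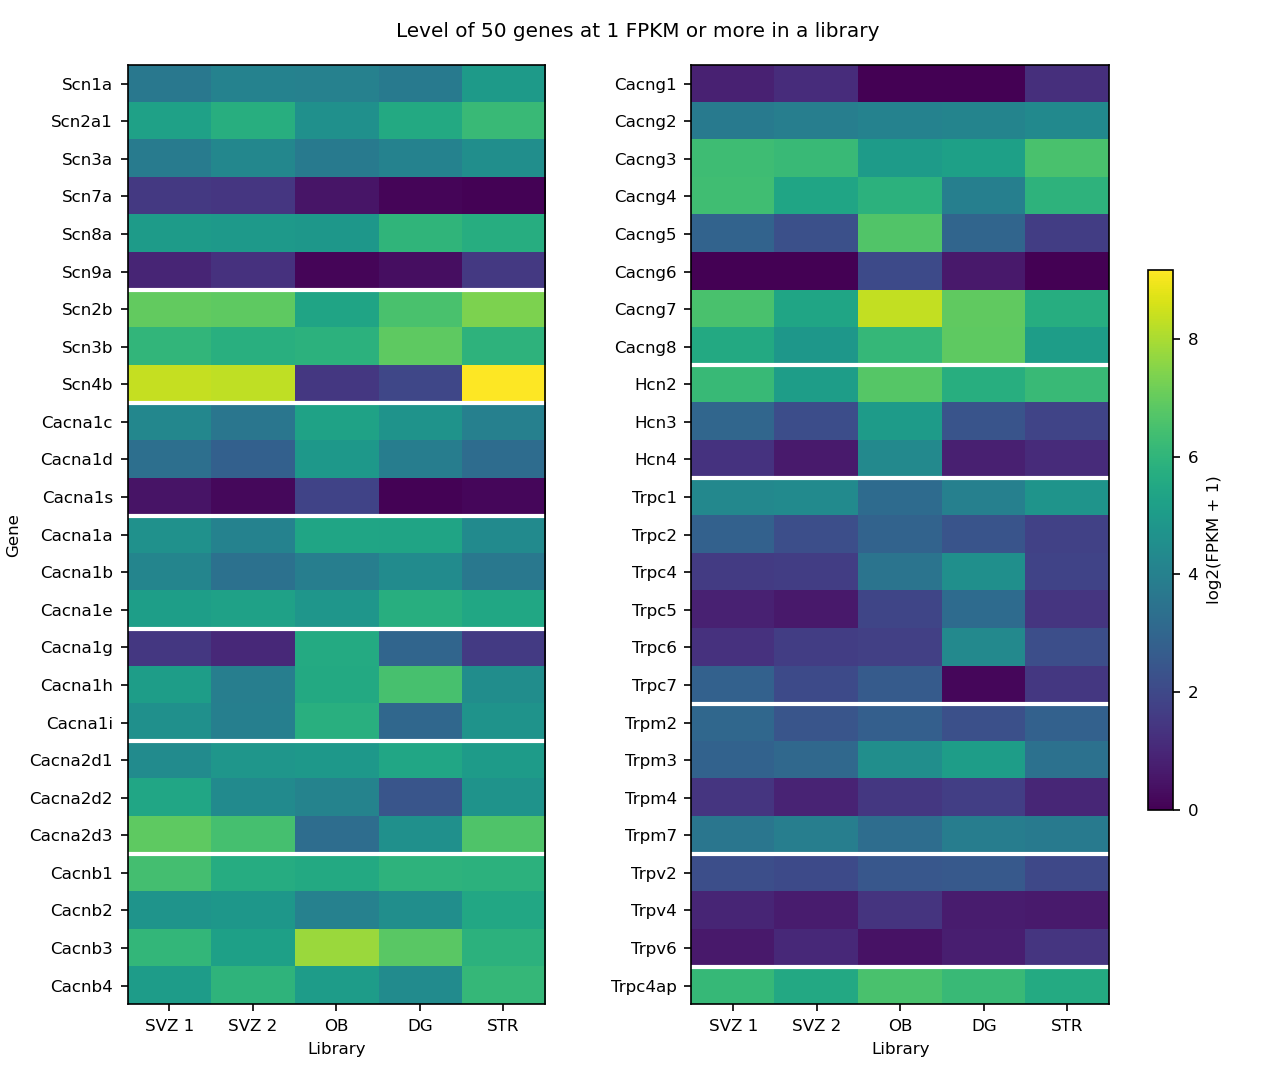
Level of 50 genes that reached 1 FPKM, as log2(FPKM + 1), with 1 row a gene ordered by class and 1 column a library. Scn4b is high in both SVZ samples and in STR and near the bottom of the scale in OB and DG, while Hcn4, Cacna1g and Cacng5 are high in the OB column and Trpc4, Trpc5 and Trpc6 in the DG column.

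The OB and DG held the genes that stood apart. A gene was counted where 1 region lay at least 1 log2 unit above, or below, every library of the other 3 regions. OB was highest for 10 of the 54 genes, where 5.42% of 14029 coding genes were, among them Cacna1d, Cacna1g, Cacna1i, Cacna1s, Cacng5, Cacng6, Cacng7, Hcn3 and Hcn4. OB was lowest for Cacna2d3 and Scn2b, against 0.855% of all coding genes, the set behind every such share here. DG was highest for Trpc4, Trpc5 and Trpc6, against 2.51%, and lowest for 4 genes, among them Cacna2d2, Cacng4 and Trpc7, against 1.85%. No channel gene stood apart in the SVZ, where 1.48% of all coding genes were highest and 0.0927% lowest, or in STR, where 0.150% were highest and 0.527% lowest. These are counts by size on the FPKM as deposited, with no test.

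Between pairs of regions, genes were counted at a difference of at least 1 log2 unit among those at 1 FPKM or more in either region. Few channel genes differed between SVZ and STR: of 50 genes, Scn7a was higher in the SVZ, where 7.00% of 13381 coding genes were, and 2 genes, among them Scn1a, were higher in STR, where 1.12% were. Of 53 genes, 17 were higher in OB than in STR, close to the 30.6% of all coding genes, and 10 were higher in STR against 6.69%. Of 49 genes, 10 were higher in DG than in STR against 17.5%, and 12 were higher in STR against 8.28%. Of 54 genes, 21 were higher in OB than in SVZ against 14.8%, and 5 were higher in SVZ against 7.18%. Of 50 genes, 11 were higher in DG than in SVZ against 7.97%, and 10 were higher in SVZ against 10.6%. Of 50 genes, 14 were higher in OB than in DG against 14.4%, and 7 were higher in DG against 5.28%. The comparisons share libraries and are not independent of each other.

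The sizes of these counts depended on the scale, and the balance for OB minus STR turned with it. The median difference over all coding genes tested was 0.53 for OB minus STR, 0.26 for DG minus STR, 0.24 for SVZ minus STR and for OB minus SVZ, 0.25 for OB minus DG and -0.02 for DG minus SVZ. Median ratio scaling took these medians close to 0. On that scale 10 channel genes were higher in OB and 17 in STR, against 14.5% and 14.4% of all coding genes, and 8 were higher in DG and 15 in STR, against 11.1% and 12.7%. It gave 1 higher in the SVZ and 5 in STR, against 4.90% and 2.30%, then 15 higher in OB and 10 in the SVZ, against 9.48% and 10.1%, and 13 higher in OB and 12 in DG, against 9.99% and 7.44%. DG and the SVZ had 11 each, against 7.98% and 10.7%. Within library sets, 12 were higher in OB than in STR and 11 lower, against 11.0% and 5.34%, and 6 were higher in DG than in STR and 11 lower, against 6.62% and 8.99%. For the pairs with the SVZ, the set-wise difference used SVZ sample 2 alone against STR and SVZ sample 1 alone against OB and DG. It gave 1 gene higher in the SVZ and 2 in STR, against 3.86% and 0.807%. Hcn2 was 1 of these 2, at -1.09, and Scn1a, at -0.94, was not. For OB it gave 17 higher in OB and 7 in the SVZ, against 9.21% and 7.57%. For DG it gave 8 higher in DG and 9 in the SVZ, against 5.63% and 12.5%. limma called none of these genes, and no gene of the table, at an adjusted p under 0.05 in any of the 6 pairs. The channel genes with an unadjusted limma p under 0.05 numbered 2 for SVZ minus STR against 4.16% of coding genes tested, 19 for OB minus STR against 13.0%, 11 for DG minus STR against 9.50%, 22 for OB minus SVZ against 13.4%, 14 for DG minus SVZ against 12.2% and 12 for OB minus DG against 10.8%. The words higher and lower below describe these libraries.

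Among the Nav alpha subunits, the pores of the sodium channels, Scn2a1 and Scn8a led. Scn2a1 encodes Nav1.2, a channel of axons and dendrites of central neurons. Its level was 37.1 and 53.2 FPKM in SVZ samples 1 and 2, 23.6 in OB, 46.1 in DG and 73.2 in STR. OB was the lowest library and STR the highest, a difference of -1.59 ± 0.53 (SE) log2 units for OB minus STR and -1.09 within library sets. Scn8a, which encodes the Nav1.6 channel of the axon initial segment and nodes of Ranvier, was at 27.8 to 31.5 FPKM in the SVZ pair and OB, 51.5 in STR and 63.3 in DG. Scn1a, which encodes Nav1.1, a channel prominent in inhibitory interneurons, was at 11.7 and 15.7 FPKM in the SVZ pair, 15.2 in OB, 12.9 in DG and 30.9 in STR. The other 4 libraries lay close together and STR above them, with SVZ minus STR at -1.13 ± 0.42 on the deposited scale and -0.94 within library sets. Scn3a, the largely embryonic neuronal subunit, was at 12.4 to 22.1 FPKM in all 5 libraries.

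Some Nav alpha subunits were low. Scn7a encodes Nax, a sodium-sensing relative of these channels that occurs in glia. It was at 1.89 and 1.73 FPKM in the SVZ pair, 0.439 in OB, 0.0953 in DG and 0.0475 in STR. Both SVZ samples were above every other library, with SVZ minus STR at 1.42 ± 0.23 (limma, adjusted p = 0.656) and 1.38 within library sets. The summed FPKM of 3 ependymal markers came to 164 in SVZ sample 1, 64.0 in SVZ sample 2 and 2.04 in STR, and its part in the Scn7a values was not tested. Scn9a, best known from sensory and sympathetic neurons, was at 0.944 and 1.46 FPKM in the SVZ pair, 1.88 in STR, 0.104 in OB and 0.270 in DG. The Scn9a locus also holds catalogue lncRNA transcripts on the opposite strand, and no source used here says whether the libraries kept strand.

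Among the Nav beta subunits, Scn4b had the largest difference of any channel gene. The beta4 subunit that Scn4b encodes is known for resurgent sodium current and is abundant in striatal projection neurons. Its level was 330 and 314 FPKM in SVZ samples 1 and 2, 1.80 in OB, 2.86 in DG and 575 in STR. The SVZ and STR values were 314 to 575 FPKM and the OB and DG values below 3 FPKM. The difference was -7.69 ± 0.46 for OB minus STR, -7.22 ± 0.46 for DG minus STR, -6.85 ± 0.40 for OB minus SVZ and -6.39 ± 0.40 for DG minus SVZ. The limma adjusted p of these ranged from 0.14 to 0.213. Within library sets the first pair of differences was -7.76 and -7.29. The SVZ minus STR difference of Scn4b was -0.84 ± 0.40 (-0.87 within library sets). The striatal projection neuron markers were also high in the SVZ and STR libraries and low in OB and DG. Their sums were 2893, 1783, 60.4, 50.2 and 2415 FPKM in SVZ samples 1 and 2, OB, DG and STR, and their part in the Scn4b values was not tested. Scn2b was at 125 and 119 FPKM in the SVZ pair, 40.4 in OB, 91.0 in DG and 163 in STR, lowest in OB by 1.15 log2 units or more. Scn3b was highest in DG, at 118 FPKM, and at 54.6 to 65.2 elsewhere. Scn4b made up 51.5% and 55.4% of the summed Nav beta FPKM in the SVZ pair and 61.3% in STR, but 0.579% in OB and 0.563% in DG.

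Scn2b and Scn4b lie beside each other on chromosome 9, and their deposited loci are 3435 bases apart (mm9). They are shown because these neighbours spanned unlike ranges over regions, 40.4 to 163 FPKM for Scn2b and 1.80 to 575 FPKM for Scn4b. The 250 bases upstream of their RefSeq start sites (RefSeq, GRCm38.p6), together with those of Hcn4 and Trpc6, whose levels stood apart in OB and in DG, read 5′ to 3′ on the gene's strand as follows, with capitals marking a GC box (GGGCGG on either strand).
Scn2b, chr9:45117626-45117875, plus strand: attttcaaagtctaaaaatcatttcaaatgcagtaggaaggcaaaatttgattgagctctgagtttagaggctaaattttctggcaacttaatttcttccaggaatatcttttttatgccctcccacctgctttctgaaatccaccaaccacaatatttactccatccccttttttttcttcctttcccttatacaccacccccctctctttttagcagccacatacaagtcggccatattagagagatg
Scn4b, chr9:45138374-45138623, plus strand: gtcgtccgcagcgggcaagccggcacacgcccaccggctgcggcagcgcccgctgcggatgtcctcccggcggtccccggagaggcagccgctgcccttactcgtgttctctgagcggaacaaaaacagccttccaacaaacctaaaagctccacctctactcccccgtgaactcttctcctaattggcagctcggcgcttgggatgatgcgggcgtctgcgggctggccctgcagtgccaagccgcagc
Hcn4, chr9:58822699-58822948, plus strand: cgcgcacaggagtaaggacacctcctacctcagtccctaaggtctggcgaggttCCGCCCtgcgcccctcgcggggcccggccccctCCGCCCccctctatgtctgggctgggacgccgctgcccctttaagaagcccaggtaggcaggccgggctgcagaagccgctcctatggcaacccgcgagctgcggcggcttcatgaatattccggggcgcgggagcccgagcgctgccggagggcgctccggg
Trpc6, chr9:8543892-8544141, plus strand: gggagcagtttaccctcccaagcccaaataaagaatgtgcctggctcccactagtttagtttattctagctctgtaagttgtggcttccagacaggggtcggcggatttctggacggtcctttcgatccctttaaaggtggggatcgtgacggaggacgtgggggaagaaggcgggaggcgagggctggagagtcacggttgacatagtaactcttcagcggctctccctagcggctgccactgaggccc
The Scn2b window had 38.4% GC and 1 CpG, and the Scn4b window had 66% GC and 23 CpGs. Hcn4 had 71.2% GC, 25 CpGs and 2 GC boxes, and Trpc6 56.4% GC and 12 CpGs. None of the 4 held TATAAA on either strand. RefSeq promoters were found for 52 of the 66 genes, 67 promoters in all. TATAAA on either strand was in 6 of the 67, against 12.4% of 32851 promoters of the same length, and GGGCGG on either strand was in 21 (31.3%), against 32.7%. CCAAT was in 22.4% against 33.9%, the E-box CANNTG in 67.2% against 66.2%, and TGACGTCA in none against 1.55%. Motif matches describe these letters only.

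The L-type calcium channel pores were higher in OB. Markers of several cell types were also high there: the sum of 2 olfactory nerve markers was 596 FPKM in OB and 0.0157 to 0.567 elsewhere, with S100a5 listed at 0 in the other 4 libraries, and that of 3 meningeal fibroblast markers was 47.1 in OB and 3.29 to 10.4 elsewhere. Their part, and that of the OB neuron markers given above, in the values of the L-type, T-type, gamma, HCN and other genes high in OB was not tested. Cacna1c (Cav1.2), the main L-type pore of the brain, was at 17.8 and 11.0 FPKM in the SVZ pair, 38.4 in OB, 25.2 in DG and 15.0 in STR. Its OB minus STR difference of 1.30 ± 0.56 was 0.65 within library sets. Cacna1d (Cav1.3), an L-type pore that opens at more negative voltages, was at 9.18 and 6.04 FPKM in the SVZ pair, 28.3 in OB, 13.6 in DG and 8.36 in STR. OB was above every other library, by 1.00 log2 units over DG. Cacna1s, the pore of skeletal muscle, reached 1 FPKM only in OB, at 2.59, and was at 0.381 and 0.147 in the SVZ samples, 0.0276 in DG and 0.124 in STR. Of the Cav2 pores that drive transmitter release, Cacna1e (R-type) was at 27.5 FPKM in OB, 34.6 and 37.0 in the SVZ samples, 43.4 in STR and 53.4 in DG. Cacna1a (P/Q-type) was at 41.2 and 40.3 FPKM in OB and DG and 15.8 to 23.8 in the SVZ and STR libraries, and Cacna1b (N-type) at 9.78 to 20.2 across all 5. Cacna1a made up 49.7% of the summed Cav2 FPKM in OB and 25.3% to 35.4% elsewhere.

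The T-type balance of OB and of DG differed from that of the SVZ and STR libraries. T-type channels open near rest and support burst firing. Cacna1g (Cav3.1) was at 1.80 and 1.07 FPKM in the SVZ pair, 47.4 in OB, 6.94 in DG and 1.92 in STR. OB stood 2.61 ± 0.50 log2 units above DG and 4.05 ± 0.50 above STR (3.62 within library sets). Cacna1h (Cav3.2) was at 33.3 and 14.2 FPKM in the SVZ pair, 46.4 in OB, 89.4 in DG and 21.8 in STR. The SVZ samples differed more than 2-fold, and the OB minus STR difference of Cacna1h, 1.06 ± 0.78 on the deposited scale, was -0.12 within library sets. Cacna1i (Cav3.3) was at 23.3 and 14.6 FPKM in the SVZ pair, 54.4 in OB, 7.36 in DG and 25.0 in STR. OB was the highest library for Cacna1i and DG the lowest. Its OB minus STR difference was 1.09 on the deposited scale, 0.45 within library sets and 0.52 with median ratio scaling. Cacna1h made up 86.2% of the summed T-type FPKM in DG and Cacna1i 7.10%. In SVZ sample 1, SVZ sample 2 and STR, Cacna1h had 57.1%, 47.5% and 44.7% and Cacna1i 39.8%, 48.9% and 51.4%, so the SVZ samples lay further apart than SVZ sample 2 and STR. In OB the 3 genes had 32.0% (Cacna1g), 31.3% (Cacna1h) and 36.7% (Cacna1i), while Cacna1g had 3.09% to 6.69% in the other libraries.

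**Figure D2:**
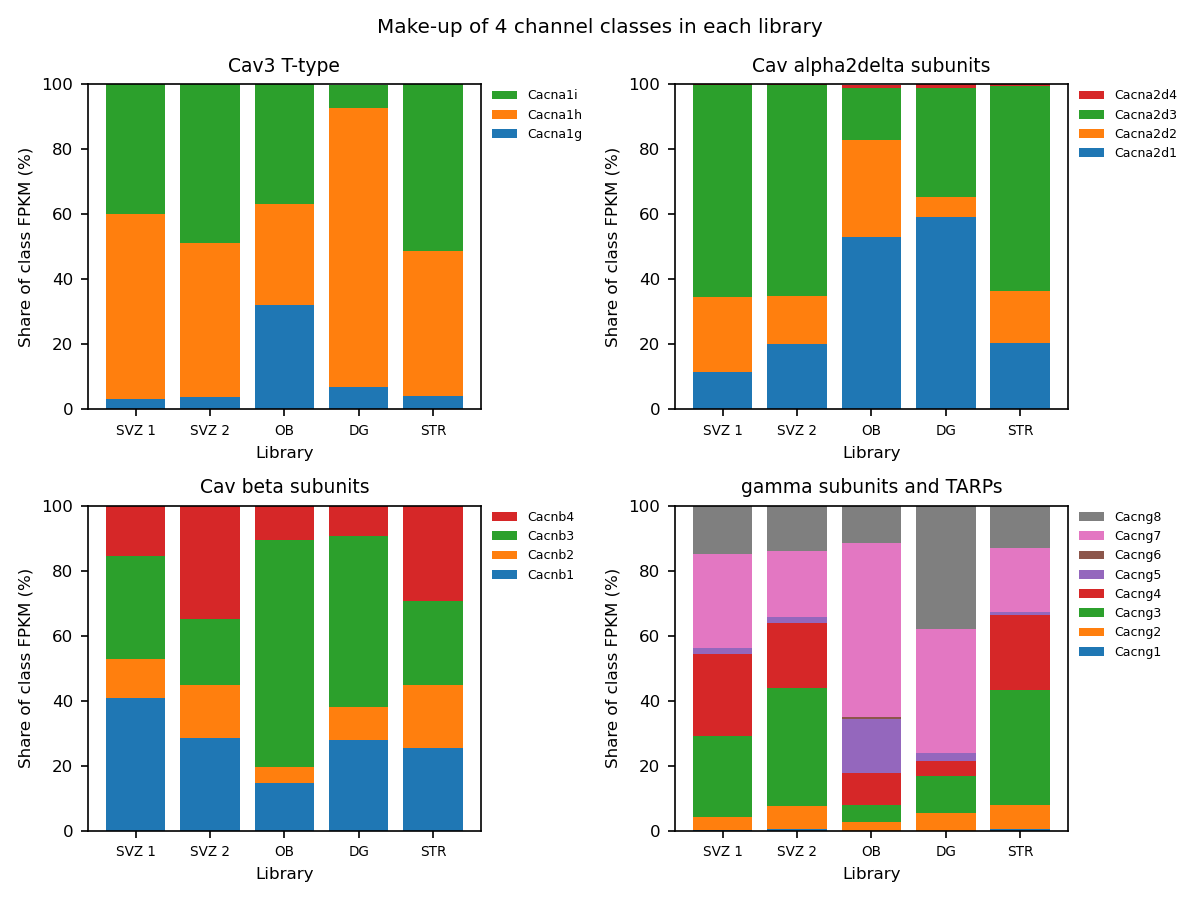
Share of the summed FPKM of a class (percent) that each gene held in each of the 5 libraries, as stacked bars from 0 to 100, for 4 classes of calcium channel genes. Cacna1h holds 86.2% of the T-type class in DG, Cacna2d3 holds 63.2% to 65.4% of the alpha2delta class in the SVZ and STR libraries and 15.8% in OB, and Cacng7 holds 53.8% of the gamma class in OB.

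Among the alpha2delta subunits, which carry calcium channels to the membrane and bind gabapentin in the case of Cacna2d1 and Cacna2d2, Cacna2d3 led in the SVZ and STR. It was at 118 and 87.2 FPKM in the SVZ pair, 8.61 in OB, 23.5 in DG and 98.9 in STR. OB and DG were both below every SVZ and STR value, with OB minus STR at -3.38 ± 0.51 and DG minus STR at -2.03 ± 0.51 (-3.82 and -2.47 within library sets). The striatal marker sums given beside Scn4b were also higher in the SVZ and STR libraries than in OB and DG. Between OB and DG they went the other way (60.4 and 50.2 FPKM), and their part in the Cacna2d3 values was not tested. Cacna2d2 was at 41.7 and 19.8 FPKM in the SVZ pair, 16.3 in OB, 4.34 in DG and 25.0 in STR, and DG minus STR was -2.28 ± 0.72 (-3.33 within library sets). Cacna2d1 varied less, from 20.6 FPKM in SVZ sample 1 to 41.5 in DG. Its share of the class was 53.0% in OB and 59.1% in DG and 11.4% to 20.4% in the SVZ and STR libraries. The beta subunits bind the pore inside the cell. Cacnb3 was at 66.5 and 35.7 FPKM in the SVZ pair, 220 in OB, 114 in DG and 59.1 in STR, and OB minus SVZ was 2.15 ± 0.58. Cacnb1 was at 46.6 to 86.1 FPKM and Cacnb2 at 15.2 to 44.4. Cacnb4 was at 32.8 and 60.9 FPKM in the SVZ pair, 32.8 in OB, 20.3 in DG and 67.6 in STR. The Cacnb4 values of the SVZ pair spanned much of the range over regions, and the sum holds a transcript of 1314 bases that shares its gene identifier with a catalogue lncRNA on the opposite strand.

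Several gamma and TARP genes were highest in OB. TARPs are auxiliary proteins of AMPA receptors, and several of them, though not all, carry the receptors to synapses and slow their closing. Cacng7 was at 92.4 and 40.5 FPKM in the SVZ pair, 323 in OB, 120 in DG and 51.4 in STR. OB minus STR was 2.63 ± 0.80, and 1.46 within library sets. Cacng5 was at 6.63 and 3.74 FPKM in the SVZ pair, 101 in OB, 6.92 in DG and 2.15 in STR, and OB was 3.68 ± 0.59 above DG and 5.01 ± 0.59 above STR (4.33 within library sets). Cacng6, a relative of the skeletal muscle gamma subunit, was at 3.12 FPKM in OB, 0.533 in DG and 0.0212 in SVZ sample 1, and was listed at 0 in SVZ sample 2 and STR. All 3 genes were higher in OB than in any other library, and Cacng7 alone held 53.8% of the class FPKM there. Cacng8, the hippocampal TARP gamma-8, was instead highest in DG, at 118 FPKM against 46.8 and 28.3 in the SVZ samples, 67.6 in OB and 33.5 in STR. Its share of the class was 37.8% in DG and 11.3% to 14.7% elsewhere. Cacng4 was at 80.6 and 40.5 FPKM in the SVZ pair, 58.6 in OB, 14.7 in DG and 60.0 in STR, lowest in DG by 1.40 log2 units or more. Cacng3 was at 31.4 and 36.1 FPKM in OB and DG and 73.4 to 92.5 in the SVZ and STR libraries. Cacng2, which encodes stargazin, was at 12.5 to 19.2 in all 5, and Cacng1, the skeletal muscle subunit, was at 1.34 or less.

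Of the HCN channels, Hcn2 was the most abundant and Hcn4 the most regional. Hcn2 was at 71.7 and 33.8 FPKM in the SVZ pair, 107 in OB, 53.4 in DG and 73.2 in STR, and its SVZ samples lay on either side of the DG value. Hcn4, the slow pacemaker channel of the heart, was at 1.57 and 0.573 FPKM in the SVZ pair, 18.9 in OB, 0.748 in DG and 1.19 in STR. Only OB was above 2 FPKM, with OB minus DG at 3.51 ± 0.53 and OB minus STR at 3.18 ± 0.53 (2.48 within library sets). Hcn3 was at 7.19 and 3.52 FPKM in the SVZ pair, 31.6 in OB, 4.16 in DG and 2.66 in STR, and OB minus DG was 2.66 ± 0.65. On the deposited scale, Hcn2, Hcn3 and Hcn4 all had their highest value in OB. For Hcn2 this depended on the scale: OB minus STR was 0.54 as deposited, -0.53 within library sets and -0.04 with median ratio scaling. For Hcn3, OB minus STR was 3.16 as deposited and 2.30 within library sets. Hcn2 held 64.4% of the class FPKM in OB and 82.4% to 90.3% elsewhere.

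The TRPC genes separated DG from the other regions in both directions. These channels open downstream of phospholipase C. Trpc4 was at 2.03 and 2.20 FPKM in the SVZ pair, 10.5 in OB, 22.5 in DG and 2.61 in STR. Trpc5, its closest relative, was at 0.772 and 0.531 FPKM in the SVZ pair, 2.76 in OB, 8.14 in DG and 1.67 in STR. Trpc6, which diacylglycerol opens directly, was at 1.45 and 2.14 FPKM in the SVZ pair, 2.33 in OB, 18.8 in DG and 3.56 in STR. DG was the highest library for all 3, with DG minus SVZ at 2.92 ± 0.39 for Trpc4, 2.47 ± 0.33 for Trpc5 and 2.84 ± 0.40 for Trpc6 (limma, adjusted p = 0.181, 0.18 and 0.185). Trpc7, a close relative of Trpc6, went the other way. It was at 6.19 and 3.17 FPKM in the SVZ pair, 5.27 in OB, 0.131 in DG and 1.78 in STR. DG was below 1 FPKM and the other 4 libraries above it. The difference was -1.30 ± 0.58 for DG minus STR (-2.08 within library sets) and -2.27 ± 0.50 for DG minus SVZ. The DG value of Trpc7 lay near the floor of that library, where the 5th percentile of values above 0 was 0.122 FPKM. The 3 dentate granule neuron markers summed to 382 FPKM in DG and the 4 cortical and CA excitatory neuron markers to 1045 there, and their part in the TRPC values was not tested. Trpc1, the most abundant TRPC gene by mean, was at 18.3 and 20.0 FPKM in the SVZ pair, 8.28 in OB, 15.1 in DG and 25.8 in STR. It held 46.3% to 53.9% of the class FPKM in the SVZ and STR libraries and 21.7% in DG, where Trpc4 held 32.4% and Trpc6 27.2%. Trpc2, a channel of vomeronasal neurons in rodents, was at 2.39 to 6.56 FPKM.

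Of the TRPM and TRPV genes, only Trpm3 differed by 1 log2 unit or more in a pair of regions on the deposited scale. Within library sets, Trpm2 did too, at -1.24 for DG minus STR. With median ratio scaling Trpv6 did, at -1.23 for OB minus STR, and Trpm7 narrowly did in the same pair and direction. Trpm3, a steroid- and heat-sensitive channel, was at 6.29 and 7.53 FPKM in the SVZ pair, 21.9 in OB, 33.4 in DG and 9.83 in STR, with DG minus SVZ at 2.13 ± 0.40 and OB minus SVZ at 1.54 ± 0.40. An intron of Trpm3 hosts a microRNA gene, and the values here are those of 9 transcripts summed. Trpm7, a ubiquitous channel with a kinase domain, was at 8.70 to 14.0 FPKM, and Trpm2, which oxidative stress opens, at 3.70 to 7.43. Trpm4 was at 0.893 to 2.26 FPKM. Trpv2 led the TRPV genes, at 3.56 and 3.17 FPKM in the SVZ pair, 4.56 in OB, 4.89 in DG and 2.94 in STR, and no pair of regions differed by 1 log2 unit. Trpv4, an osmosensitive channel, reached 1 FPKM only in OB, at 1.62, and Trpv6 only in SVZ sample 2 and STR, at 1.06 and 1.66. Trpc4ap was at 70.3 and 45.9 FPKM in the SVZ pair, 91.9 in OB, 74.1 in DG and 47.4 in STR.

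The plot of differences from STR sets the deposited scale against the difference within library sets. Scn4b, Cacna2d3 and Trpc4 lay within 0.5 log2 units of the line of equality, and Cacng7, Cacna1h and Cacna2d2 lay more than 1 unit from it. The SVZ pair shows the spread that this touches. Across the 54 genes, the difference of SVZ sample 1 from sample 2 ran with the GC content of the transcripts (GENCODE M21), with a Spearman rho of 0.732 over genes that share these libraries. Of the 27 genes with the higher GC content, 25 were higher in sample 1, with a median difference of 0.61. Of the other 27, 11 were, with a median of -0.12. The factors of the median ratio scaling, from 14366 coding genes, were 1.13 in sample 1 and 0.883 in sample 2. Coding genes in general thus tended to be higher in sample 1. The relation to GC content was not computed over all coding genes, so it is not read as particular to the channel genes.

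**Figure D3:**
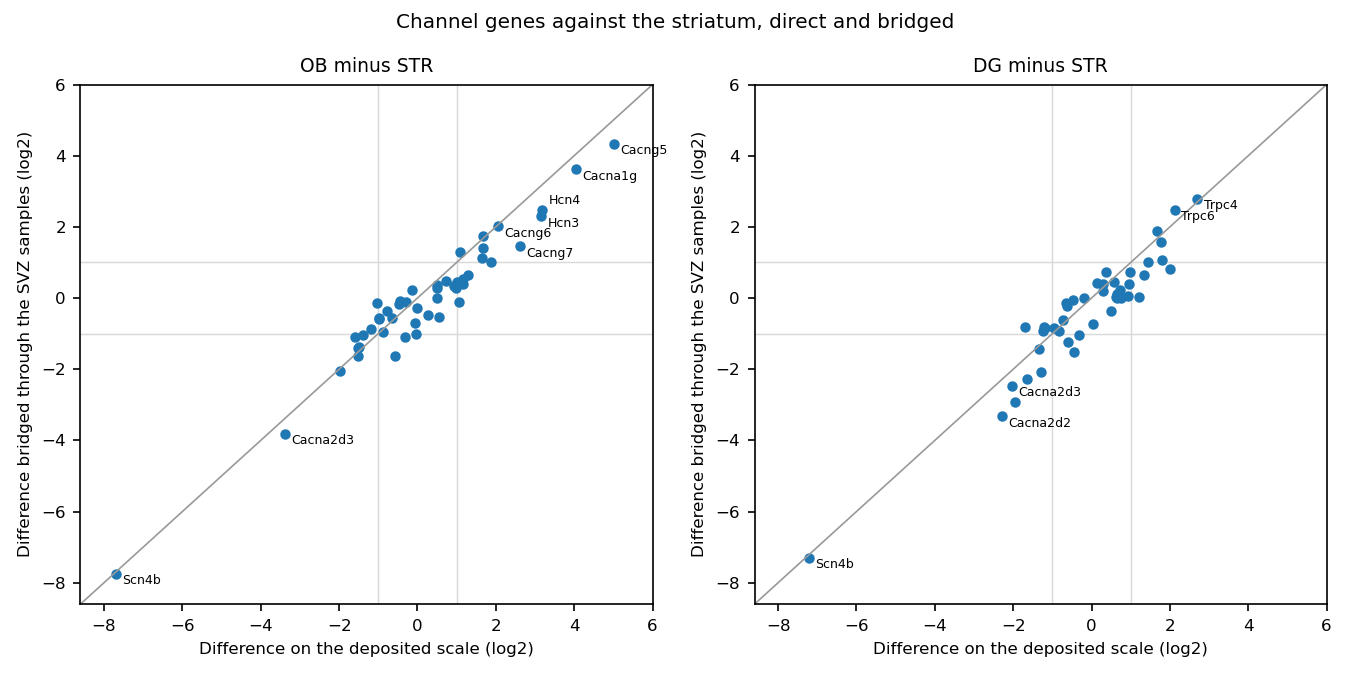
Difference of OB (left) and DG (right) from STR for the channel genes described here, in log2 units, on the deposited scale (x) and within library sets (y), with the line of equality and thin lines at 1 and -1. Scn4b lies on the line at -7.69 and -7.22, and Cacng5, Cacna1g, Hcn3 and Hcn4 lie below it on the right of the OB panel.

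The split of libraries also reached the isoforms. Of 17 channel genes with several transcripts in the table and 1 FPKM or more in every library, 8 had the same leading transcript in all 5 libraries. In 6 (Cacna1g, Cacna2d1, Cacnb3, Cacnb4, Cacng5 and Trpm3) 1 transcript led in SVZ sample 1, OB and DG and another in SVZ sample 2 and STR. For Cacna2d1, NM_001110844 held 85.6% of the gene's FPKM in SVZ sample 1, 89.9% in OB and 100% in DG, and it was listed at 0 in SVZ sample 2 and STR, where NM_009784 held 85.3% and 86.4%. For Cacng5, NM_001199301 held 100% in SVZ sample 1 and 33.8% in SVZ sample 2. The samples of the SVZ, 1 region, thus had different leading isoforms of these genes, and no isoform difference against STR is read as regional. Cacna1c, Cacna1d and Scn3b were the other 3.

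**Figure D4:**
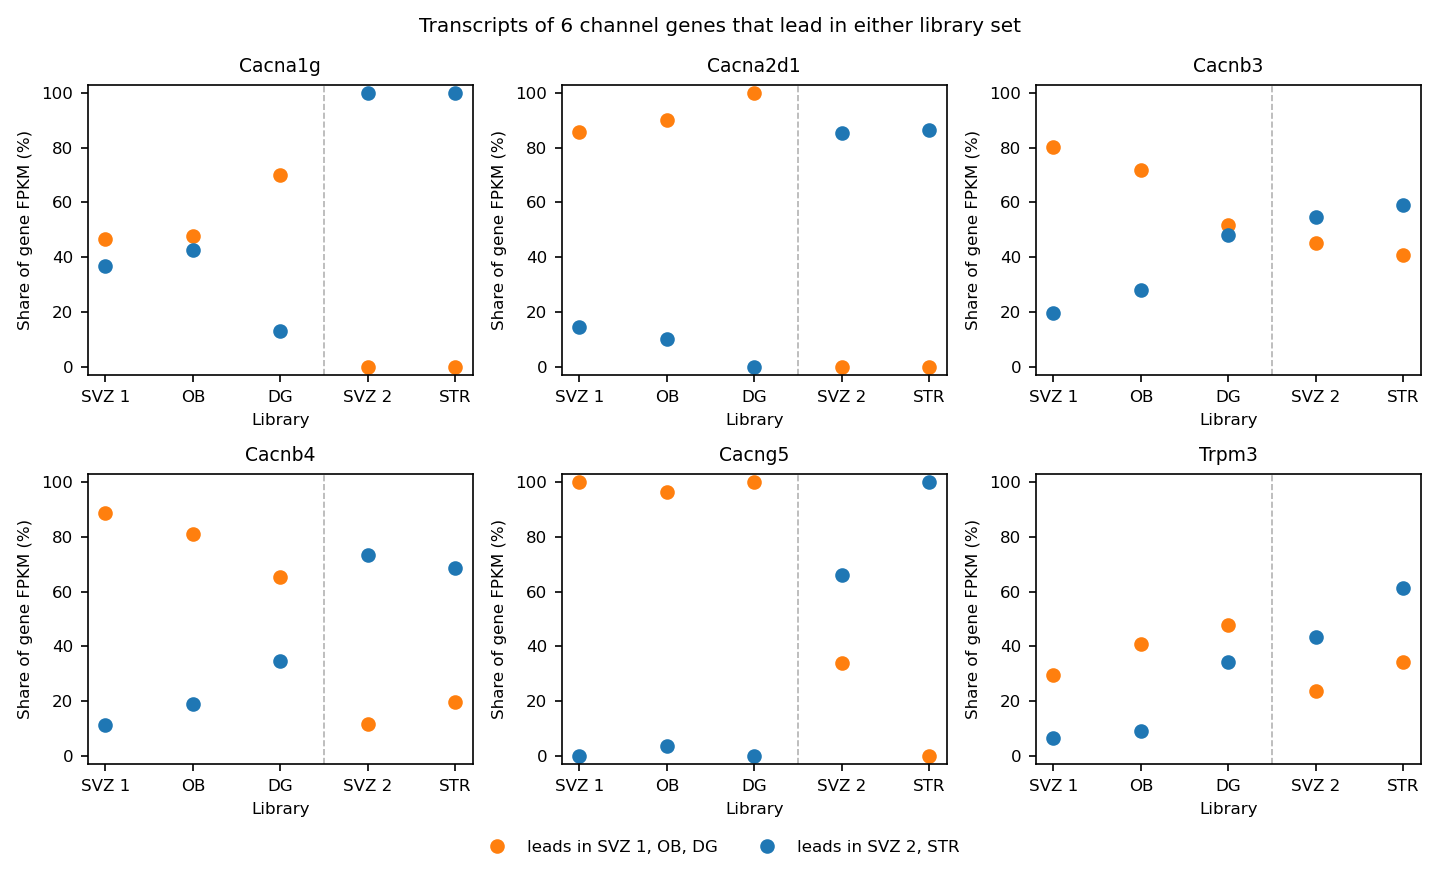
Share of a gene's FPKM (percent) held by the transcript that leads in SVZ sample 1, OB and DG (orange) and by the one that leads in SVZ sample 2 and STR (blue), for 6 genes, with 1 point a library and a dashed line between the library sets. The blue points are above the orange ones in SVZ sample 2 and STR in every panel, and the orange ones above the blue in the other 3 libraries.

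Genes that work with these channels were taken from lists of 52, of which 51 were in the table under the symbols used. Of 42 tested in OB minus STR, 10 were higher in OB and 6 in STR, against 30.6% and 6.69% of coding genes. Of 41 in DG minus SVZ, 9 were higher in DG and 5 in the SVZ, against 7.97% and 10.6%. Among the Cav regulators, Stac2, an adaptor of L-type channels, was at 7.95 and 4.70 FPKM in the SVZ pair, 73.5 in OB, 20.3 in DG and 6.96 in STR, with OB the highest library, as for the L-type pores. Rem2, a small GTPase that inhibits calcium channels, was at 63.8 and 42.8 FPKM in the SVZ pair, 29.7 in STR and only 5.19 and 6.11 in OB and DG. Fgf13, which binds sodium channel tails, was at 198 FPKM in DG and 27.6 to 56.8 elsewhere. Orai2, a pore of store-operated calcium entry, was at 194 FPKM in DG and 15.7 to 31.7 elsewhere. Itpr1, the calcium release channel of the endoplasmic reticulum, was at 168 and 182 FPKM in the SVZ pair, 31.4 in OB, 73.4 in DG and 259 in STR. The AMPA receptor auxiliary Cnih3 was at 59.1 FPKM in DG and 33.0 in OB and 2.32 to 4.71 in the SVZ and STR libraries.

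The authors' lncRNA catalogue placed 18 transcripts of 13 loci within the deposited loci of 11 channel genes, 17 of them on the opposite strand. In 9 the level reached 1 FPKM in a library. The deposited loci of Cacnb4, Cacng4, Cacng8 and Scn9a begin or end at the base where such a transcript does, so a locus can be wider than the gene, and no mm9 gene model was used here to place the transcripts in exons or introns. A transcript of 1042 bases in 2 exons within the Cacng8 locus (chr7:3389808-3391708, mm9, minus strand, Cacng8 being on the plus strand) was at 17.3 and 11.2 FPKM in the SVZ pair, 19.8 in OB, 154 in DG and 9.33 in STR. DG was the highest library for this transcript as it was for Cacng8. As said of Scn9a, reads of the 2 strands may not be separable.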

How the data were processed

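The authors deposited 1 table of FPKM values for 37142 transcripts in 5 libraries, 28150 of RefSeq and 8992 of their lncRNA catalogue. A second deposited file gives the catalogue's exon structures on mm9, with a BED score that is constant and was not used. Transcript length is a column of the authors' table. CASAVA, TopHat 1.2.0, Cufflinks 1.0.0 and mm9 are named, per the submitters' processing notes, with no role or order. The design text names paired and single reads but ties neither to a sample. FPKM carry no counts, so depth is unknown and no counting interval is given.

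FPKM were summed per symbol, and log2(FPKM + 1) was compared between 4 regions in 6 pairs with limma 3.58.1 (trend) in R 4.3.3 on all genes, with Benjamini-Hochberg adjustment over genes that reached 1 FPKM in either region. The fit was tested on simulated data. As it called no gene, genes were counted at 1 log2 unit. Values in every library are given for genes that stood apart in a region, the 3 largest differences each way in each pair and the most abundant gene of each class. Others named are examples chosen after their values were seen. The channel genes, classes, partner and marker lists were chosen with earlier results of these data known. Alternatives were a pseudocount of 0.1, no filter, median ratio scaling, the highest transcript, each SVZ sample left out and the library sets. Leaving out transcripts that share a gene identifier with a catalogue lncRNA was added after seeing the data. RefSeq promoters are on GRCm38.p6, and GENCODE M21 served for strand and GC content only. The partner gene Sptbn4 was not found under that symbol. Python 3.11.15 and pandas 2.3.3 were used. Some genes counted among the 66 are not reported here by name or value.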

Additional observations from a re-analysis of the deposited data

How the results depend on the processing

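The spread of OB, DG and STR was not measured, and without an SVZ sample no residual degree of freedom is left, so such values have no test. No paired analysis was possible because only the SVZ has more than 1 sample, so the regions share fewer than 2 replicate numbers. limma called no gene under any alternative that allowed a fit. For SVZ minus STR, the genes higher in the SVZ (1) were 3 with a pseudocount of 0.1 and 1 to 5 when an SVZ sample was left out, 5 without SVZ sample 2, and those higher in STR (2) were 4 with a pseudocount of 0.1 and 5 with median ratio scaling. For OB minus STR, median ratio scaling gave 10 higher in OB in place of 17 and 17 higher in STR in place of 10. For DG minus STR, 6 in place of 10 were higher in DG within library sets. For OB minus SVZ, those higher in the SVZ (5) were 8 with a pseudocount of 0.1, 10 with median ratio scaling and 7 to 8 when an SVZ sample was left out, 8 without SVZ sample 1 and 7 without SVZ sample 2. For OB minus DG, median ratio scaling gave 12 in place of 7 higher in DG. The cause of these shifts was not tested. Of 180 differences of named genes, 1 with a size of at least 1 log2 unit reversed, that of Cacna1h in OB minus STR, at -0.12 within library sets. Sign changes of smaller differences were not counted. An example is Hcn2 in OB minus STR, at 0.54 on the deposited scale and -0.53 within library sets. On that scale 12 others lost the size of 1 log2 unit and 7 gained it, and with median ratio scaling 12 lost and 14 gained it. Dropping the filter leaves every difference as it is. The only channel transcript that shares a gene identifier with a catalogue lncRNA is that of Cacnb4, which is not among these named genes. These settings could therefore move none of the 180. Depth limits what the low genes show, and it is unknown here.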
